A study of Mus musculus with 4 samples.

Results

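MHC class I molecules carry short peptides from inside the cell to its surface, where CD8 T cells and natural killer receptors read them. The 10 genes described here cover that route and were taken by their symbols from 32285 genes in the deposited matrices. H2-K1 and H2-D1 encode the classical heavy chains, B2m the light chain shared by all class I molecules, and H2-T23 the nonclassical chain Qa-1, which presents signal peptides to NKG2A receptors. Psmb8 and Psmb9 encode inducible catalytic subunits of the immunoproteasome, which cuts proteins into peptides. Tap1 and Tap2 form the transporter that moves these peptides into the endoplasmic reticulum, and Tapbp encodes tapasin, which holds empty class I molecules at the transporter while peptide is loaded. Nlrc5 encodes the transactivator of class I genes. Interferons raise transcription across the route, and nearly all nucleated cells use it at some level.

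The data were 4 droplet single-cell RNA-seq libraries of CD45+ cells sorted from collagenase-digested hindpaws of male mice. DB stands for Lepr db/db mice, which lack the long leptin receptor and become obese and diabetic, and WT for their Lepr WT/WT littermates. Both genotypes were sampled at 12 weeks (12-week-WT, 12-week-DB) and at 21 weeks (21-week-WT, 21-week-DB). All mice were on the C57BLKS/J background. Each group was 1 library from pooled mice, so no test between groups was possible. The 95% intervals of levels, ratios and shares are exact and describe counting error alone.

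Of 30793 barcodes, 27800 passed the limits of 200 or more detected genes and no more than 10% mitochondrial UMIs (5271 and 6552 for WT and DB at 12 weeks, 7270 and 8707 at 21 weeks), with a median of 5355 to 8000.5 UMIs per barcode, lowest in 21-week-DB. Marker gates placed 19941 of them in 14 leukocyte classes, and the class names used here stand for those gates. Each of the gates' markers was higher in its class than in the other classes, which the gates themselves favour. The values are UMIs summed over the cells of a class and scaled to 1000000 UMIs of those cells (CPM). Where a group of 4 values is given, the order is WT and DB at 12 weeks, then WT and DB at 21 weeks. In 10 classes every library held at least 20 cells: macrophages, monocyte-derived cells, cDC2 (type 2 conventional dendritic cells), mast cells, neutrophils, B cells, alpha-beta T cells, dermal gamma-delta T cells, NK cells and ILC2 (group 2 innate lymphoid cells). The 21-week-WT and 21-week-DB libraries shared 154 cell barcodes and the other pairs 6 to 41. Leaving out every shared barcode changed none of the 62 class calls given below.

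In GENCODE vM21 annotation of GRCm38, 8 of the 10 genes lie on chromosome 17 within 2.12 Mb. Tap1, Tap2, Psmb8 and Psmb9 sit together in 34.3 kb, H2-K1 at 33996017-34000347 and H2-D1 at 35262730-35267499. B2m is on chromosome 2 (122147686-122153083) and Nlrc5 on chromosome 8 (94434356-94527272). The 2 classical heavy chain genes are close paralogs, so their transcripts were compared for shared sequence. In the last 500 windows of 90 bases at the 3′ end, which the 3′ libraries read, neither H2-K1 nor H2-D1 shared a window with another gene, whereas 79 of the 500 windows of H2-T23 also occurred in other genes, so counts of H2-T23 are less certain. The reference is C57BL/6J and the mice were C57BLKS/J; the effect of allelic differences on the assignment of reads was not tested.

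The upstream regions of H2-K1, H2-D1 and B2m are shown because these 3 genes encode the assembled class I molecule and the DB/WT ratios of the first 2, given below, were of different size. RefSeq promoters (GRCm38.p6, 250 bases before to 50 after the start) were given for 8 of the 10 genes. Capitals mark an interferon-response motif (TTTCNNTT), a kB-type motif (GGGNNTTCC), and the CRE-like box (TGACG) followed on the same strand, with 10 to 30 bases between, by the inverted CCAAT box (ATTGG) that together form much of the class I SXY module. All were searched on both strands, the pair with both boxes on one strand.
H2-K1, chr17:34000351-34000466, minus strand: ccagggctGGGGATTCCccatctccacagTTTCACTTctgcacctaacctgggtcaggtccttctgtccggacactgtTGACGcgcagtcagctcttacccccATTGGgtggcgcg
H2-D1, chr17:35262915-35263030, plus strand: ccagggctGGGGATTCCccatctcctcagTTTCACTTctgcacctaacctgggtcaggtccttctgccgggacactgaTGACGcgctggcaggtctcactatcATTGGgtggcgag
B2m, chr2:122147531-122147646, plus strand: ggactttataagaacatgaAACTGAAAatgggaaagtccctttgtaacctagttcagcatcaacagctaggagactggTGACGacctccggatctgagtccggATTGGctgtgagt

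The H2-K1 and H2-D1 stretches differed at 12 bases (89.7% the same) and held the same 4 boxes in the same order. The B2m stretch was the same as that of H2-K1 at 40.5% of bases and held the paired boxes with 20 bases between them, as in both heavy chain genes. The pair of boxes occurred in 0.743% of 32851 promoters of this length, the interferon-response motif in 23.9%, the kB-type motif in 5.82%, and the pair together with the interferon-response motif in 0.152%. Tap1 and Psmb9 are transcribed away from each other with 226 bases between their starts, so their promoter windows overlapped by 275 bases. A match describes the letters and does not show that a factor bound there.

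The first question was how the genes are distributed over leukocyte classes. Among the 10 classes, the mean level of H2-K1, H2-D1 and Nlrc5 was highest in NK cells and lowest in mast cells. The highest of the 10 was alpha-beta T cells for Tap1, Tap2 and Psmb8, macrophages for Tapbp and monocyte-derived cells for Psmb9. The lowest was cDC2 for B2m and macrophages for H2-T23. Migratory DCs, a smaller class described below, had a higher mean than all 10 for every gene but H2-T23. That mean was over 3 libraries without 21-week-DB, the lowest library for H2-K1 in all 10 classes. The means are therefore not like for like. It was 2225 CPM for H2-K1 and 493 CPM for Psmb8 in migratory DCs. H2-K1 was lower in migratory DCs than in NK cells in 12-week-WT (2409 against 2742 CPM) and 21-week-WT (2106 against 2321 CPM). In 12-week-DB it was higher (2160 against 1912 CPM). H2-K1 in NK cells was 2742, 1912, 2321 and 827 CPM, and NK cells were the highest of the 10 classes in all 4 libraries. In mast cells it was 506, 333, 433 and 255 CPM, the lowest class in all 4. The values of the 2 classes did not overlap, although 21-week-DB was the lowest library in both.

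Each class was compared with the mean of the other 9 classes across the 4 libraries, with the library as a block (edgeR quasi-likelihood test, adjusted over all 11726 genes tested). In NK cells, 7 of the 10 genes were higher (12% of all genes tested were) and 0 lower (9.98%). The largest were Nlrc5, with a log2 difference of 1.86 ± 0.30 (SE, adjusted p = 1.1e-05), and H2-K1, at 1.13 ± 0.12 (adjusted p = 9.3e-10). H2-D1 (0.64), B2m (0.50), Tap1 (0.60), Tap2 (0.54) and Psmb8 (0.47) were also higher. The NK cell calls of Tap1 (0.38, adjusted p = 0.18), Tap2 (0.27, 0.29) and Psmb8 (0.16, 0.57) were lost in the second fit with more classes, described below. In mast cells 0 of 10 were higher (27%) and all 10 were lower (22.3%), from -0.42 for B2m to -2.41 for Nlrc5. H2-D1 was 516 to 709 CPM in mast cells and 1487 CPM or more in each of the other 9 classes in every library. B2m, at 1061 to 1400 CPM in mast cells, overlapped the values of other classes.

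In alpha-beta T cells 7 genes were higher (24.7%) and 1 lower (16.7%). Of the 7, Psmb9 (0.60) lost its call in the second fit with more classes (0.28, adjusted p = 0.079), described below. Nlrc5 was higher by 1.65 ± 0.18 (adjusted p = 1.2e-09), Tap1 by 0.91 and Tap2 by 0.89, and Tapbp was lower by -0.33. In ILC2, H2-K1, H2-D1, H2-T23 and Nlrc5 were higher (4 of 10, 25%) and Psmb9 was lower (1 of 10, 16.7%). In dermal gamma-delta T cells Tap2 and Nlrc5 were higher (2 of 10, 27.4%) and B2m, Tapbp and Psmb9 lower (3 of 10, 17.1%). In B cells 0 were higher (22.5%) and 2, H2-D1 and Tapbp, were lower (21.8%). In neutrophils H2-D1 and Psmb9 were higher (2 of 10, 18.3%) and Psmb8 was lower (1 of 10, 19.6%).

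Myeloid classes divided the route differently. In macrophages 1 gene, Tapbp, was higher (37.8%), by 0.51 ± 0.11 (adjusted p = 1.0e-04), and 7 were lower (24.9%), among them Nlrc5 (-1.34), Tap1 (-0.91), H2-T23 (-0.82) and H2-K1 (-0.54). In monocyte-derived cells 7 were higher (25.6%) and 0 lower (14.8%), led by Psmb9 (1.23), Psmb8 (0.91) and Tap1 (0.79). In cDC2, Psmb8 (0.73), Psmb9 (0.74) and Tapbp (0.33) were higher (3 of 10, 32.8%), and H2-K1, B2m, H2-T23 and Nlrc5 were lower (4 of 10, 18.3%). Tapbp was thus higher in macrophages, monocyte-derived cells and cDC2, and lower in mast cells, B cells, alpha-beta T cells and dermal gamma-delta T cells. The cDC2 calls of Tapbp (0.21, adjusted p = 0.17) and B2m (-0.32, 0.064) were lost in the second fit with more classes, described below.

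**Figure D1:**
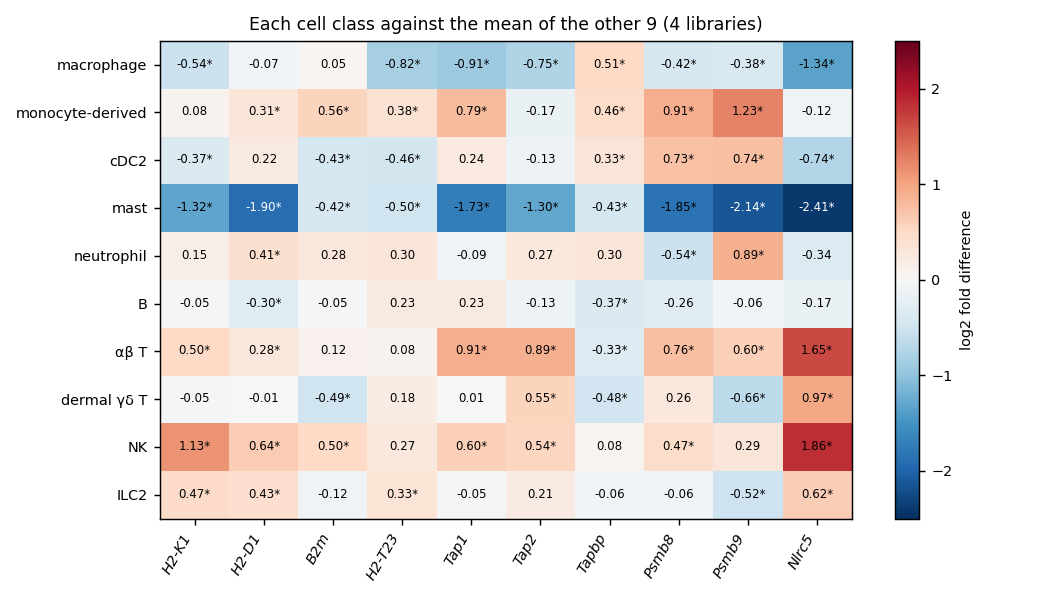
Log2 difference of each class from the mean of the other 9 classes over 4 libraries, with an asterisk where the adjusted p was below 0.05. The mast cell row is negative for all 10 genes, and Nlrc5 is positive in the 4 T, NK and ILC2 rows and negative with an asterisk in macrophages, cDC2 and mast cells.

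Ordered by mean level, neighbouring classes mostly overlapped in their range over libraries. For H2-K1, B2m, H2-T23, Tap1, Tap2, Tapbp and Nlrc5, 0 of the 9 neighbouring pairs were without overlap, for Psmb8 and Psmb9 1 pair and for H2-D1 2 pairs. The spread between the ends was 14.8-fold for Nlrc5 (NK cells over mast cells), 7.65-fold for Psmb9 (monocyte-derived over mast cells), 5.11-fold for H2-K1 and 1.89-fold for Tapbp. The lowest mean of Nlrc5 rests on few molecules, with 0 to 4 UMIs in mast cells of each library, and the exact upper limit for the 0 of 12-week-DB is 6.46 CPM (5.25 CPM by the rule of 3 counts). Its highest mean was uneven too, since NK cells were the highest class in 3 of the 4 libraries. In their lowest library NK cells held 5.30 CPM of Nlrc5, beside a mast cell maximum of 5.31 CPM.

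**Figure D2:**
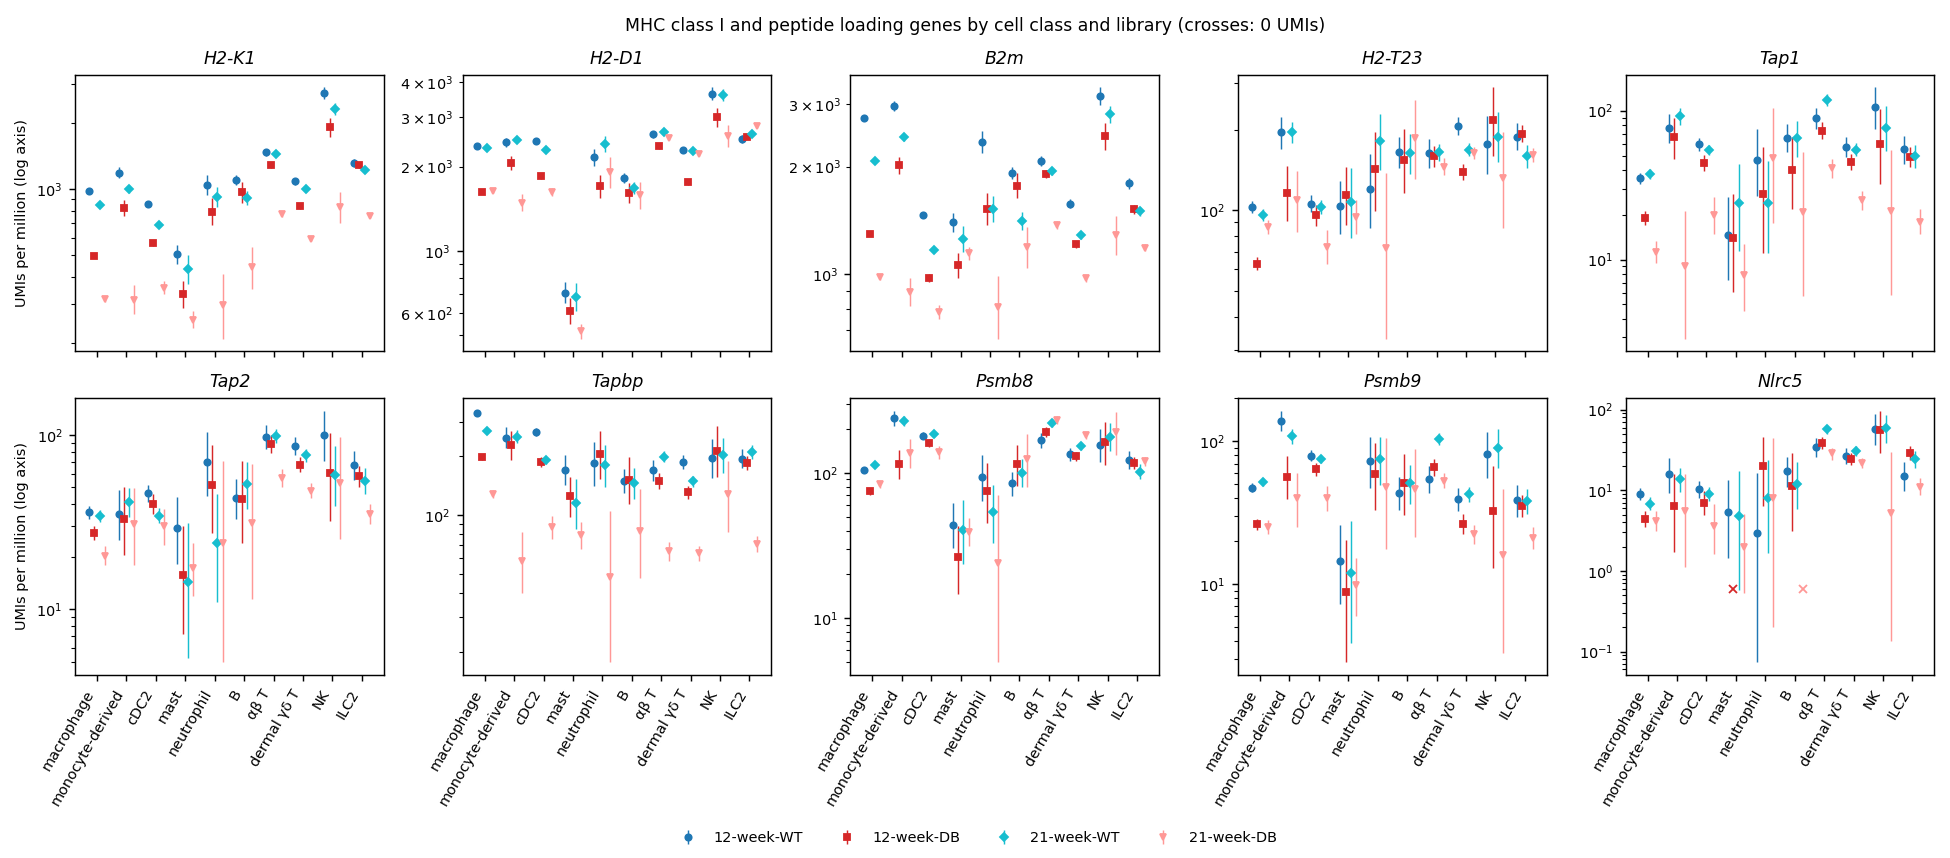
CPM of each gene (log axis) by class and library, with exact 95% Poisson intervals and crosses for 0 UMIs. The 21-week-DB points of H2-K1 are the lowest of the 4 in all 10 classes, whereas those of H2-D1 lie among the other libraries in dermal gamma-delta T cells and above them in ILC2, where its DB/WT ratio changes sign when Gm42418 and Lars2 are left out of the total.

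Smaller classes with at least 10 cells in 3 libraries were added to a second fit, chosen after the data were seen. Migratory DCs, Ccr7+ dendritic cells that leave the tissue for lymph nodes, held 12 to 28 cells in the 3 libraries used. Their H2-K1 was 2409 CPM in WT and 2160 CPM in DB at 12 weeks, and 2106 CPM in WT at 21 weeks. Against the mean of the other 12 classes, 9 of the 10 genes were higher (12.3% of the 11267 genes in this fit were) and 0 lower (9.1%), with Nlrc5 at 2.58, Psmb8 at 2.09 and H2-K1 at 1.38, and H2-T23 was 0.21 (adjusted p = 0.51). The cDC1, dendritic cells known for presenting exogenous antigen on class I, had members on both sides, 5 higher (24.9% of genes) and 4 lower (14.7%). Psmb9 (2.81), Psmb8 (2.11), Tap1 (1.70), Tap2 (1.37) and Tapbp (0.79) were higher, while B2m (-1.13), Nlrc5 (-0.91), H2-K1 (-0.79) and H2-D1 (-0.55) were lower. Psmb9 in cDC1 was 368 CPM in WT and 278 CPM in DB at 12 weeks and 307 CPM in WT at 21 weeks, against 139.9 CPM or less in every class of the first fit. Only 3 cDC1 were found in 21-week-DB, so that library gave no value for this class. DETC (dendritic epidermal T cells, 11 to 67 cells per library) were also added. All 10 genes were below the mean of the other classes there, from -0.63 for H2-T23 to -1.89 for Nlrc5. All but Nlrc5 (adjusted p = 0.079) were called lower, and the share of all genes lower in DETC was not counted. In mast cells B2m was no longer called in this fit (-0.29, adjusted p = 0.097). Tapbp and B2m in cDC2 and Psmb9 in alpha-beta T cells also lost their calls, as given above.

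The second question was how the genes differed between DB and WT. In macrophages of 12 weeks all 10 were lower in the DB library. H2-K1 was 985 CPM in WT and 496 CPM in DB, which gave a log2 ratio of -0.99 (95% interval -1.03 to -0.95). B2m was 2734 and 1299.95 CPM (-1.07, -1.10 to -1.05), and H2-D1 was 2362 and 1617 CPM (-0.55, -0.57 to -0.52). H2-T23 (-0.71), Tap1 (-0.88), Tapbp (-0.75), Psmb9 (-0.84) and Nlrc5 (-1.02) stood near H2-K1, and Tap2 (-0.39) and Psmb8 (-0.50) near H2-D1. By a threshold of 1.5-fold, 7 of the 10 were lower, against 6.88% of all genes with at least 100 UMIs, and the median log2 ratio of the 10 was -0.80 against 0.01 over all of those genes. A different mix of cells inside a gate and a different level in each cell cannot be told apart in these sums.

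Macrophages had the lowest 12-week ratio of the 10 classes for H2-K1, H2-D1, B2m, Tap1 and Tapbp. For the other genes the lowest was in another class: H2-T23 (-0.75), Tap2 (-0.89), Psmb8 (-1.04), Psmb9 (-1.34) and Nlrc5 (-1.33). In alpha-beta T cells and ILC2 the libraries of 12 weeks stood closer together. In alpha-beta T cells H2-K1 was 1471 CPM in WT and 1284 CPM in DB (-0.20, -0.27 to -0.12), and 0 of the 10 genes were lower by 1.5-fold (1.87% of all genes), with a median of -0.13. In ILC2 H2-K1 was 1312 and 1291 CPM (-0.02), and H2-D1 2516 and 2561 CPM (0.03). The macrophage value of H2-K1 was the lowest of the 10 classes, cDC2 (-0.59), mast cells (-0.60), monocyte-derived cells (-0.53) and NK cells (-0.52) came next, and dermal gamma-delta T cells were at -0.37. Over the 6 classes with at least 200 cells in every library (macrophages, cDC2, mast cells, alpha-beta T cells, dermal gamma-delta T cells, ILC2), 7 of the 10 genes had at least 20 UMIs in each. Of these 7, H2-K1, B2m, Tap2 and Tapbp were lower in 12-week-DB in all 6 classes (4.05% of all such genes), and 0 were lower by 1.5-fold in all 6 (0.0459%).

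In macrophages of 21 weeks all 10 genes were again lower in DB. H2-K1 was 845 CPM in WT and 318 CPM in DB (-1.41, -1.46 to -1.36), Tap1 37.5 and 11.3 CPM (-1.74, -2.01 to -1.47) and B2m 2081 and 981 CPM (-1.08, -1.11 to -1.05). H2-D1 was 2322 and 1638 CPM (-0.50), close to its ratio at 12 weeks, and Psmb8 114 and 83.2 CPM (-0.45). H2-T23 was 96.3 and 86.8 CPM (-0.15, -0.26 to -0.04). By 1.5-fold 7 of 10 were lower (7.8% of all genes), with a median log2 ratio of -0.90 against 0.04 over all genes.

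At 21 weeks the lymphoid classes differed as well. In alpha-beta T cells H2-K1 was 1454 CPM in WT and 772 CPM in DB (-0.91, -0.97 to -0.85), Tapbp 198 and 65.5 CPM (-1.60, -1.79 to -1.41), Tap1 118 and 41.0 CPM (-1.53, -1.77 to -1.29), and Psmb9 104 and 53.1 CPM (-0.98, -1.20 to -0.75). In the same cells H2-D1 was 2654 and 2529 CPM (-0.07, but 0.10 with mitochondrial and ribosomal genes left out of the total) and Psmb8 219 and 231 CPM (0.07, -0.06 to 0.20). By 1.5-fold 6 of 10 were lower, against 13.2% of all genes. The order of the libraries differed among members of the route. H2-K1 and Tapbp were lower in 21-week-DB in all 10 classes with intervals below 0, and Psmb8 was lower in 5 and higher in 5.

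Over the 6 large classes, 9 of the 10 genes had enough UMIs at 21 weeks. H2-K1, B2m, Tap1, Tapbp and Psmb9 were lower in 21-week-DB in all 6 (15.6% of all such genes were). H2-K1 and Tap1 were lower by at least 1.5-fold in all 6, which 0.475% of genes were. Neutrophils were an exception for Tap1 among the 10 classes, with 9 UMIs in WT and 6 UMIs in 38 cells of DB, and the interval of its log2 ratio (-0.77 to 2.66) included 0.

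**Figure D3:**
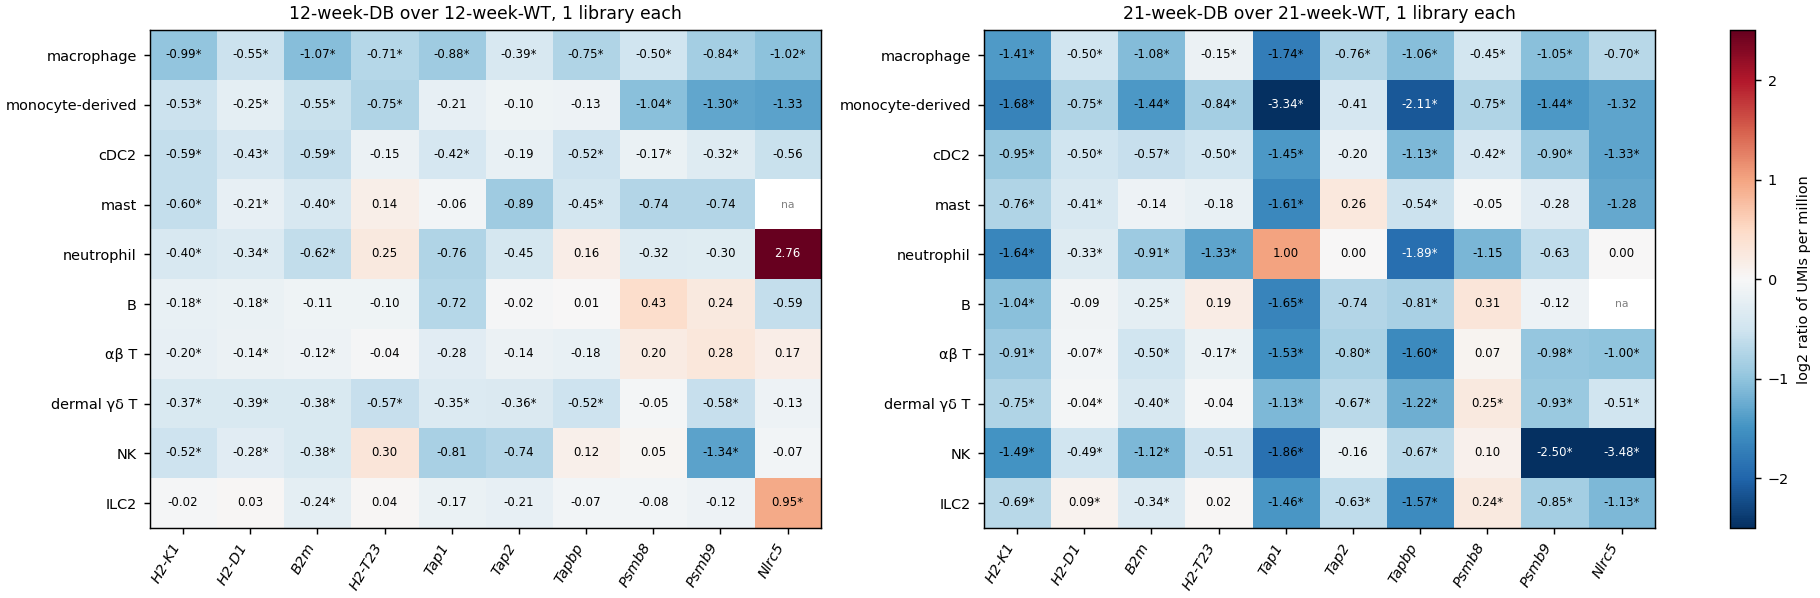
Log2 ratio of DB over WT for each gene and class at 12 weeks and at 21 weeks, 1 library each, with an asterisk where the exact 95% counting interval excludes 0 and na where a library held 0 UMIs. At 12 weeks the macrophage row is the one with 10 asterisks below 0; at 21 weeks the H2-K1 and Tapbp columns are negative with an asterisk in all 10 classes while the Psmb8 column has both signs.

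The 21-week-DB library also differed in transcripts outside the route. Gm42418, which overlaps ribosomal RNA, was 77314 CPM in WT and 18724 CPM in DB in macrophages of 21 weeks (-2.05), and 89393 and 21070.0 CPM in alpha-beta T cells (-2.08). Lars2 in macrophages was 2235 and 750.4 CPM (-1.57). At 12 weeks the log2 ratio of Gm42418 in macrophages was -0.63 and that of Lars2 -0.20. The median share of mitochondrial UMIs was 2.47% in 21-week-DB and 3.05% to 3.96% in the others. The median ratio of all genes also followed transcript length at 21 weeks, from 0.27 in the shortest quintile to -0.05 in the longest quintile of genes in macrophages. It also followed GC content, from 0.11 in the lowest quintile to -0.06 in the highest quintile in the same cells. Of the members, H2-K1, B2m, H2-T23, Psmb8 and Psmb9 are in the shortest quintile of length. B2m (41.2% GC) is in the lowest quintile of GC content, and the other members (52.6% to 57.3%) are in quintiles 4 and 5. The part of these library features in the DB ratios was not tested. With Gm42418 and Lars2 left out of the total, the median log2 ratio of the 10 genes in macrophages was -0.83 at 12 weeks and -0.99 at 21 weeks.

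Shares within a pair of genes need no scaling to a total. In macrophages of 12 weeks H2-K1 made up 29.4% of H2-K1 plus H2-D1 UMIs in WT (Clopper-Pearson interval 29.04% to 29.8%) and 23.5% in DB. At 21 weeks it made up 26.7% in WT and 16.3% in DB (15.8% to 16.7%). In alpha-beta T cells it was 36.1%, 35.2%, 35.4% and 23.4%, with 21-week-DB well below the others. In ILC2 it was 34.3%, 33.5%, 31.8% and 21.3%, the same picture. The medians over the 10 classes were 33.5%, 32.9%, 31.1% and 21.2%.

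The neighbours Psmb9 and Psmb8 were set against each other in the same way. Psmb9 was 31.1%, 26.2%, 31.5% and 23.3% of Psmb9 plus Psmb8 UMIs in macrophages. In dermal gamma-delta T cells it was 22.8%, 16.9%, 21.8% and 10.98%, and in ILC2 23.9%, 23.4%, 27.3% and 15.0%. The lowest of the 4 shares was that of 21-week-DB in 9 of the 10 classes, the exception being neutrophils, where it was the highest (66.7%, from 6 and 3 UMIs). Tap1 was a median of 55.0% of Tap1 plus Tap2 UMIs over the 10 classes in WT of 21 weeks and 34.96% in DB.

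**Figure D4:**
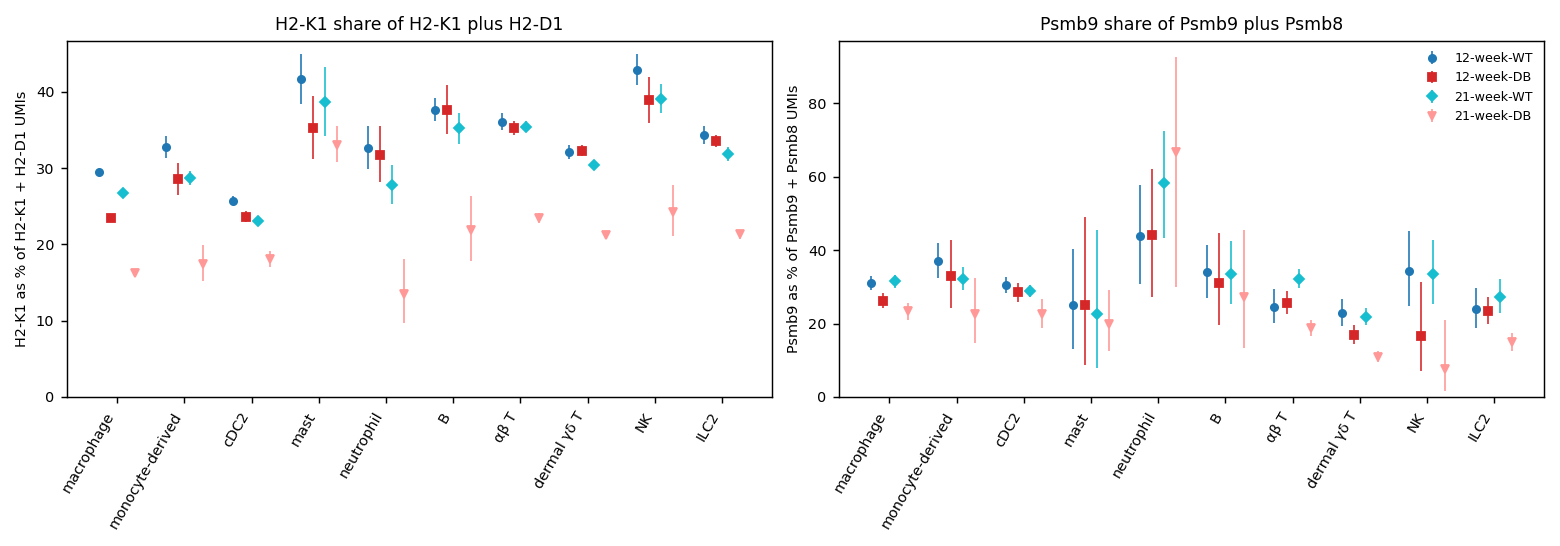
H2-K1 as a percent of H2-K1 plus H2-D1 UMIs and Psmb9 as a percent of Psmb9 plus Psmb8 UMIs, by class and library, with exact 95% binomial intervals. The H2-K1 share of 21-week-DB is the lowest of the 4 in all 10 classes, and the Psmb9 intervals are wide in mast cells, neutrophils and NK cells, where few UMIs were counted.

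Position on chromosome 17 was then set beside the 21-week ratios, as means over the 6 large classes. The 8 members there ranged from -1.48 for Tap1 to -0.06 for Psmb8, neighbours on the chromosome, with a median of -0.65. The 67 other genes of the region with enough UMIs had a median of -0.06, and 37 of them were below 0. Tapbp was -1.19 and its neighbour Daxx -0.46. The class II genes H2-Aa (-2.38), H2-Eb1 (-2.17) and H2-Ab1 (-2.10), which antigen-presenting cells express, were together with H2-DMb1 (-2.14) the lowest of the region. These means give mast cells, T cells and ILC2 the same weight as macrophages and cDC2, so they do not show a fall within antigen-presenting cells. The 21-week-DB library held 200 cDC2 and 21-week-WT 838, and the part of ambient RNA in these means was not tested.

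**Figure D5:**
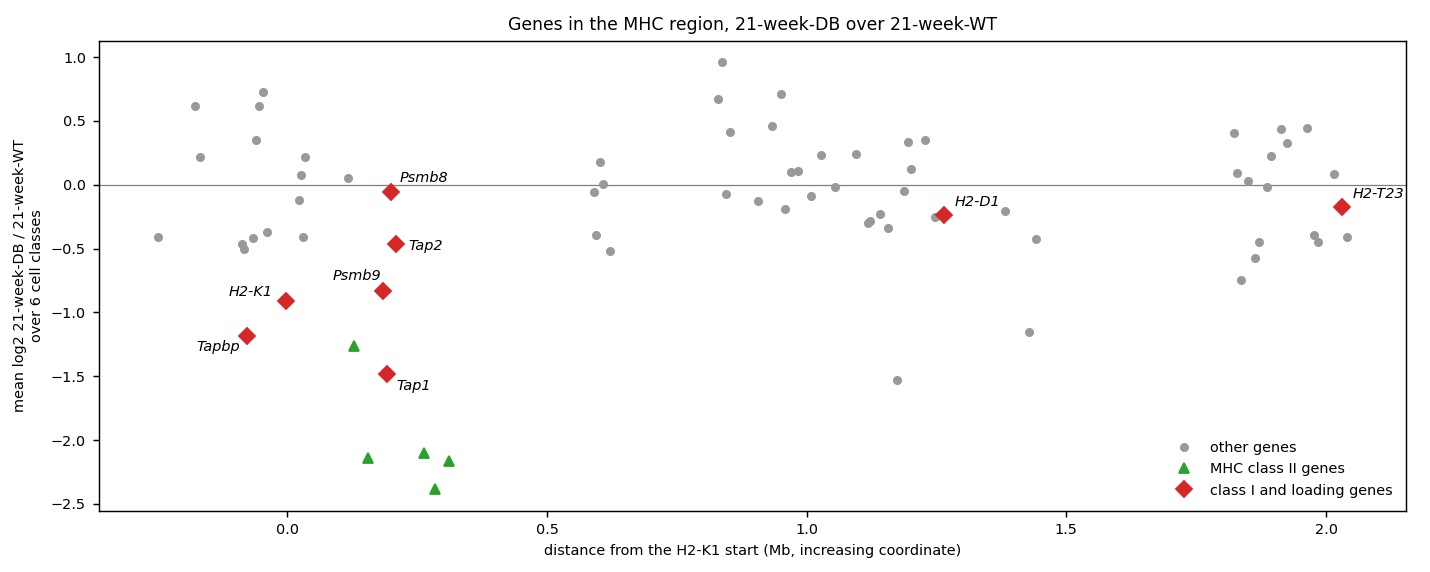
Mean log2 ratio of 21-week-DB over 21-week-WT over 6 classes against distance from the H2-K1 start in Mb, for genes of the MHC region. Tap1, Tapbp, H2-K1 and Psmb9 lie between -1.48 and -0.83, Psmb8 and H2-T23 near 0, and most other genes between -0.6 and 0.6.

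Macrophages were further divided by H2-Ab1, at a log-normalised value of 2, since at 21 weeks the DB library held 124 MHCII-high and 1201 MHCII-low macrophages and the WT library 693 and 760. The division cuts a continuous range, and 217 and 271 macrophages of WT and DB at 12 weeks and 210 and 116 at 21 weeks lay within 0.5 of it, the last beside only 124 above it. In MHCII-high macrophages H2-K1 of 21 weeks was 919.6 CPM in WT and 313 CPM in DB (-1.56, -1.72 to -1.40), and in MHCII-low macrophages 778 and 318 CPM (-1.29, -1.35 to -1.23). In the same order the log2 ratio of B2m was -1.15 and -1.08, and that of H2-D1 -0.71 and -0.42. At 12 weeks H2-K1 was -1.08 in MHCII-high and -0.95 in MHCII-low macrophages. DB was thus the lower library for H2-K1 on both sides of the division at both ages.

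The ages were then set side by side within each genotype. The log2 ratio of 21 over 12 weeks in WT was -0.22 for H2-K1 and -0.02 for H2-D1 in macrophages, and over the 10 classes H2-K1 ranged from -0.32 to -0.02. B2m was lower at 21 weeks in all 10 classes, from -0.62 in neutrophils to -0.10 in alpha-beta T cells. Other members differed more between the WT libraries, such as Psmb9 in alpha-beta T cells with 54.3 CPM at 12 weeks and 104 CPM at 21 weeks (0.94, 0.61 to 1.29), and Nlrc5 in the same cells with 34.5 and 57.2 CPM. In DB, H2-K1 was lower at 21 than at 12 weeks in all 10 classes, from -1.41 in neutrophils to -0.38 in mast cells, and Tapbp in all 10 (-2.09 to -0.62), while H2-D1 had a median of -0.01 and Psmb8 of 0.20. Age cannot be told apart from the Cell Ranger version named in the matrix headers (5.0.0 at 12 weeks, 6.0.0 at 21 weeks), and the contrasts share libraries with those of DB and WT.

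Other genes of the pathway were described from fixed lists, by the same threshold of 1.5-fold. Of all genes with at least 100 UMIs in macrophages, 6.88% were lower by it at 12 weeks and 7.8% at 21 weeks. In alpha-beta T cells the shares were 1.87% and 13.2%. The shares of all genes that were higher were not counted. Of 9 other class I genes, 8 had at least 100 UMIs in macrophages. H2-Q6, H2-Q7 and H2-T24 were lower in 12-week-DB, and these and H2-Q10 in 21-week-DB, with 0 higher at either age. H2-Q6 was 23.9, 11.2, 33.2 and 10.7 CPM, with both DB libraries below both WT libraries. Of the other loading and trimming genes Calr, Canx, Pdia3, Erap1 and Tapbpl, Tapbpl was past the threshold at 12 weeks (lower) and 0 of the 5 at 21 weeks. Calr, calreticulin, was 418 CPM in WT and 377 CPM in DB at 21 weeks (-0.15).

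Among further proteasome genes in macrophages, Psmb10, the remaining inducible catalytic subunit, was 75.2 CPM in WT and 47.2 CPM in DB at 21 weeks (-0.67), and Psme1 and Psme2, its activator genes, did not pass the threshold at either age. The constitutive subunit that Psmb8 replaces, Psmb5, was in the other direction, at 12 weeks 95.8 CPM for WT and 164 CPM for DB (0.78), and 104 and 155 CPM at 21 weeks (0.58, just under the threshold). Psmb6 was 98.5 and 130.2 CPM at 12 weeks (0.40).

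Of 12 listed regulators of the route, 4 were lower by the threshold and 0 higher in macrophages of 12-week-DB, and 4 were lower and 2 higher, Irf2 (0.74) and Rfxank (0.76), in 21-week-DB. Irf9, a factor of type I interferon signalling, was 55.9, 19.6, 33.6 and 17.99 CPM. Irf1 was lower at 12 weeks (71.3 and 35.2 CPM, -1.02) and was 86.1 and 96.2 CPM at 21 weeks (0.16). None of the 4 interferon receptor genes passed the threshold in macrophages at either age. All 7 measured interferon-induced genes were lower in 12-week-DB macrophages (of 8 listed), Irf7 among them at 25.3 and 7.80 CPM, and 4 of 7 were lower at 21 weeks. Ciita, the class II counterpart of Nlrc5, was 28.7 CPM in WT and 4.44 CPM in DB at 21 weeks. Ifng, the gene of interferon gamma, was 109, 61.3, 143 and 61.1 CPM in alpha-beta T cells, with log2 ratios of -0.82 and -1.22. In these cells 1 of 3 measured interferon-induced genes was lower at 12 weeks (median of the 3, 0.34) and 0 of 5 at 21 weeks. Their receptor genes Ifngr1 at 12 weeks and Ifngr2 at 21 weeks were higher in DB. Against the other classes Ifng was highest in NK cells (log2 difference 6.56), which are not given by genotype here.

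Receptors of class I were described in alpha-beta T cells and macrophages. NK cells, where Klrc1 (log2 difference 6.38), Klrd1 (5.83) and Klra7 (10.15) were higher than in the other classes, were not compared by genotype here. In alpha-beta T cells Cd8a was 39.5, 42.4, 27.8 and 24.1 CPM and Cd8b1 45.6, 43.7, 42.2 and 50.4 CPM, and neither passed the threshold. In the same cells Lilrb4a at 12 weeks and Kir3dl1 at 21 weeks passed it, both higher in DB. In macrophages Pirb, an inhibitory receptor of class I, was 129.7, 139, 88.8 and 105 CPM (0.10 and 0.24). Lilrb4a, which was on the same list but is known for other ligands, was 319, 290.2, 282 and 472 CPM and passed the threshold at 21 weeks (0.74).

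The genes most like the mean of H2-K1, H2-D1 and B2m were ranked over 40 sums (10 classes in 4 libraries) among 6175 genes whose mean was 20 CPM or more. Outside the 10 genes they were Lars2 (Pearson r = 0.82), Gbp3 (0.81), Myh9 (0.79), Gm42418 (0.79) and H2-Q6 (0.78). Among the 10, the closest to H2-K1 were B2m (0.82), Tap1 (0.81) and Tap2 (0.80), and the least alike pair was H2-T23 and Tapbp (0.21). The points share libraries, depth and the 21-week-DB features above, so the correlations are given as a description.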

How the data were processed

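CD45+ hindpaw cells were profiled with 10x Genomics 3′ chemistry, 1 library per group from pooled mice. The authors deposited UMI counts per gene and barcode, aligned to mm10 with Cell Ranger. The submitters' processing notes name version 5.0.0, as do the 12-week matrix headers, whereas the 21-week headers name 6.0.0. No normalization had been applied.

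Gates used UMIs of marker genes per 10000 UMIs of a barcode, a minimum number of markers detected and, for lymphoid classes, required or absent genes. Barcodes that met several gates (170 to 297 per library) or none (996 to 2410) were left out, as was a dendritic gate with fewer than 3 markers. Doublets were removed only in an alternative (Scrublet in scanpy 1.11.5). Counts were summed per class and library and scaled to CPM, with exact Poisson intervals, conditional binomial intervals for ratios and Clopper-Pearson intervals for shares, all for counting error only. Precision follows the sums, which ranged from 124377 UMIs (neutrophils of 21-week-DB) to 18857591 (macrophages of 12-week-DB).

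Classes were tested with the quasi-likelihood test of edgeR (4.0.16, under R 4.3.3) after TMM scaling and the filterByExpr filter; the library was a block and p-values were adjusted over all genes by Benjamini-Hochberg (threshold 0.05). The code was tested on simulated data, and standard errors were derived from the F statistic. DESeq2 1.42.0 was an alternative. The pools are single samples, and spread between libraries includes group and age. Genes named are the 10 members, listed pathway genes with at least 20 CPM in a class of a library, and the 5 of most like pattern; Gm42418 and Lars2 were described further after their values were seen, as were Daxx and the class II genes. Members, lists and gates were chosen with earlier results of these data known. Motifs were searched in RefSeq promoters. Some items of the labels and lists are not reported here. Alternatives are given in the closing section.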

Additional observations from a re-analysis of the deposited data

Results flagged for a closer look

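Nlrc5 in ILC2 had DB/WT ratios of opposite sign at the 2 ages, with both counting intervals away from 0. At 12 weeks it was 15.2 CPM in WT and 29.3 CPM in DB (log2 ratio 0.95), and at 21 weeks 24.3 CPM in WT and 11.1 CPM in DB (log2 ratio -1.13). The sums held 24, 103, 65 and 68 UMIs in that order, each from 1 library, and the difference between ages was not tested. No other of the 10 genes crossed in this way in the 10 classes.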

How the results depend on the processing

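The comparison of classes made 33 higher and 29 lower calls. Without the library block these were 19 and 16, and 35 of the 62 calls were kept; leaving out 1 library gave 26 to 34 higher and 20 to 27 lower calls (lowest for lower calls without 12-week-DB, which kept 46 of 62). Each other alternative kept 51 or more, and none gave a call of the opposite sign. These were RLE scaling, DESeq2 (36 and 28), no filter on low counts, stricter cell filters, Scrublet removal, a stricter gate, subtraction of ambient RNA and, chosen after seeing the data, shared barcodes left out and more classes in the fit. No paired analysis was possible because each group had 1 library and the labels give no shared replicate numbers. Of 1500 single tests of a gene in a class under these alternatives, 105 lost their call and 22 gained one. Among results called in the main or the alternative fit, 0 changed direction. Changes of sign between results called in neither were not counted, and some occurred, such as Psmb8 in dermal gamma-delta T cells (0.26, and -0.02 with more classes in the fit). The median log2 DB/WT of the 10 genes in macrophages stayed between -0.83 and -0.76 at 12 weeks and between -0.99 and -0.83 at 21 weeks. Of 1071 alternative DB/WT ratios in the 6 large classes, 1010 moved by less than their counting interval and 58 by more. Changes of sign where the interval of the main ratio included 0 were not counted apart. The other 3 changed sign from a main ratio whose interval excluded 0, all for H2-D1 at 21 weeks. With mitochondrial and ribosomal genes left out of the total it was 0.10 in alpha-beta T cells and 0.058 in dermal gamma-delta T cells. With Gm42418 and Lars2 left out it was -0.025 in ILC2. The cause was not tested. Depth limited Nlrc5, Tap1 and Tap2 in mast cells, neutrophils and NK cells, where a sum could hold few or 0 UMIs.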
